A study of Mus musculus with 6 samples.

Results

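The AP-1 and EGR immediate-early factors are transcription factors, many of whose genes are switched on within minutes of a signal, with no need for new protein. Not all genes of the set behave so, and Jund is known for steady expression in resting cells. The set holds 10 genes, taken by symbol from the 25124 gene rows of the deposited expression table. Fos, Fosb and Fosl2 are FOS proteins, Jun, Junb and Jund are JUN proteins, and Atf3 is an ATF protein. Egr1, Egr2 and Egr3 belong to the EGR family. They were measured by RNA-seq in macrophages sorted from the lamina propria of the mouse colon, the connective layer under the gut epithelium. The comparison was between macrophages of macrophage-specific E4BP4 transgenic mice (TG, 3 libraries) and of wild type mice (WT, 3 libraries). E4BP4, encoded by Nfil3, is itself a bZIP transcription factor, best known as a repressor.

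All 6 libraries came from C57BL/6 mice 8 weeks old that had been given dextran sulfate sodium, a colitis-inducing polymer, at 2.0% in drinking water. The polymer was given for 7 days and plain water for another 7 days, and cells were collected on day 14. Mice without colitis are not among the groups, so every TG and WT value here is from the recovery phase of colitis. The labels do not give the promoter that drives the transgene, and they do not say whether each library is 1 mouse or a pool. The p-values therefore measure only how far these libraries differ among themselves, and that spread may be technical.

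FOS and JUN proteins work as dimers joined through a leucine zipper. A FOS protein must pair with a JUN protein to bind DNA, while JUN proteins can also pair with each other or with ATF proteins. Jun and Fos are classed as strong activators, and Junb, Jund and Fosl2 can dampen or replace them in the dimer. EGR proteins bind GC-rich DNA through zinc fingers and are held in check by the NAB corepressors. In macrophages both families respond to growth factors, microbial products and mechanical or thermal stress, including the handling of tissue.

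The libraries held 13.97 to 15.06 M (1e6) reads in genes, and 12633 genes that reached a group mean of 1 TPM were tested with limma. TPM is a transcript level scaled for transcript length and depth. A gene is called here when its Benjamini-Hochberg adjusted p over all tested genes is below 0.05. Nfil3, the gene named by the transgene, had 133, 134 and 141 TPM in TG libraries, against 117, 120 and 119 TPM in WT libraries. It was called higher, with a log2 fold change of 0.19 ± 0.03 (SE, limma adjusted p = 0.00261). Whether RNA of the transgene is counted in these Nfil3 values was not tested. The macrophage markers Csf1r, which encodes the receptor of the growth factor CSF1, and Adgre1, which encodes F4/80, averaged 1094 and 426 TPM in TG libraries, against 983 and 361 TPM in WT libraries. A further marker, Cd68, went the other way, at 616 TPM in TG libraries and 639 TPM in WT libraries. Of 12 macrophage markers 4 were called higher and 6 lower, beside 8.71% and 13.2% of all tested genes.

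All 10 members passed the filter on low values. In TG macrophages 5 members were called higher (Fos, Fosb, Jun, Atf3 and Egr1) and 2 were called lower (Fosl2 and Jund). The other 3 (Junb, Egr2 and Egr3) were not called. Of all tested genes 8.71% were called higher and 13.2% lower. The same 5 members had every TG library above every WT library, a pattern seen in 17.1% of tested genes, and the same 2 had every TG library below every WT library, seen in 22.3%. The ratios of mean TPM ran from 0.837 for Jund to 1.33 for Atf3. In bulk samples a larger share of cells using a gene and more RNA of it per cell cannot be told apart.

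**Figure D1:**
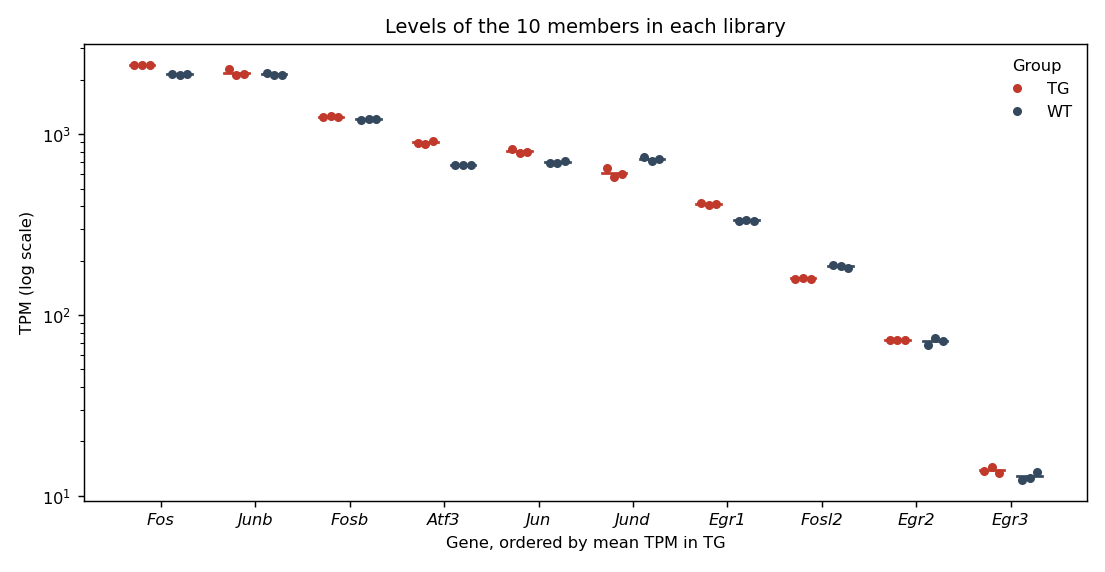
TPM of the 10 members in each library on a log scale, TG libraries in red on the left of each pair and WT libraries in dark blue on the right, with bars at the group means. Atf3 and Egr1 show the widest gaps with TG above WT, and Jund and Fosl2 lie lower in TG libraries.

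The members spanned a wide range of levels, and their order differed between the groups. In TG libraries Fos was highest with a mean of 2415 TPM, followed by Junb (2183 TPM) and Fosb (1246 TPM). In WT libraries Junb (2146 TPM) and Fos (2140 TPM) overlapped at the top, with Fosb (1205 TPM) next. The middle of the order was turned round. In TG libraries Atf3 (901 TPM) stood above Jun (802 TPM) and Jun above Jund (611 TPM), whereas in WT libraries Jund (730 TPM) stood above Jun (699 TPM) and Jun above Atf3 (675 TPM). None of these neighbours overlapped within a group. In both groups Egr1, Fosl2, Egr2 and Egr3 followed in that order without overlap. By mean TPM over the 6 libraries Fos ranked 18 among all genes of the table, Junb 21 and Fosb 37.

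The sequences below show the start regions of the 3 members in which a search of the 300-base promoter windows found a match, so that the letters can be read beside the values that follow. The windows are RefSeq promoter sequences on GRCm38.p6 (mm10), from 250 bases before to 50 bases after a gene's start. Each is printed 5′ to 3′ on the gene's strand, cut to 120 bases, with the match in capitals. Fosb lies on the minus strand and its stretch is chr7:19310032-19310151. Fosl2 lies on the plus strand at chr5:32136337-32136456 and Egr2 on the plus strand at chr10:67537742-67537861.
Fosb: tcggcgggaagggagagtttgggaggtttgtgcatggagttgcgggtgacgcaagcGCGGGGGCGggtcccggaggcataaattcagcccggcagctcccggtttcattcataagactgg
Fosl2: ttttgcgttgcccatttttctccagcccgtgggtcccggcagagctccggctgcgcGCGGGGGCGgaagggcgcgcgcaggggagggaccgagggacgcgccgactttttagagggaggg
Egr2: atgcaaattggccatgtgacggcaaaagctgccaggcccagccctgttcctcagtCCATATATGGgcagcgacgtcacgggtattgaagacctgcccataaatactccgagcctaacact

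The capitals in Fosb and Fosl2 mark the EGR motif GCGNGGGCG, whose first base lies 50 bases before the start of Fosb and 79 bases before that of Fosl2. In Egr2 they mark a CArG box, the kind of sequence bound by serum response factor (SRF). It lies 133 bases before the start of the Egr2 transcript behind the TPM values. Egr2 has windows at further starts, and the distance depends on the start. The window for the start at chr10:67537566 holds another CArG box, 72 bases before that start, which is not printed. Both strands were searched, and 8 of the 10 members had an entry, with 12 windows in all. Egr1 and Egr3 had no entry, so whether their start regions hold any of these motifs was not tested. The EGR motif is in 5.55% of all 32851 promoter windows and the CArG box in 1.63%. The AP-1 site TGACTCA (5.2% of all windows), the CRE TGACGTCA (1.79%) and the E4BP4 sites TTACGTAA (0.119%) and TTATGTAA (0.938%) had no match in the members' windows. None of these motifs shares its matched bases with another in the windows printed. A match here is a description of letters and not a binding site.

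Among the FOS members, Fos and Fosl2 moved in opposite directions. Gene positions here and below are the files' own on mm10. Fos (chr12:85473890-85477274, plus strand), the classic partner of Jun in AP-1, had 2414, 2412 and 2420 TPM in TG libraries, against 2137, 2137 and 2145 TPM in WT libraries. The TG libraries lay close together, all above the WT libraries. Fos was called higher, with a log2 fold change of 0.17 ± 0.01 (SE, limma adjusted p = 1.68e-05). With 196631 reads in the 3 TG libraries and 169373 in the 3 WT libraries behind it, Fos varied within a group by 0.161% (TG) and 0.207% (WT) as a coefficient of variation. That is less than the 0.405% that counting alone would give, a spread estimated from only 3 libraries a group. The spread was below that of counting for 4 of 10 members in TG libraries (Fos, Egr1, Egr2 and Egr3) and for 3 of 10 in WT libraries (Fos, Fosb and Atf3). In those cases the libraries of a group differed by less than counting error, and the SE and adjusted p rest partly on that spread.

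Fosb (chr7:19302696-19310045, minus strand), which resembles Fos and has a truncated splice form known from neurons, differed by little. It had 1241, 1258 and 1241 TPM in TG libraries, against 1202, 1207 and 1207 TPM in WT libraries. The groups did not overlap, but the gap was narrow. Its log2 fold change was 0.05 ± 0.01 (SE), with a limma adjusted p of 0.0252. That call was lost in 8 of 15 alternative settings, where the adjusted p reached 0.412. These include leaving out any WT library or either TG replicate 2 or TG replicate 3.

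Fosl2 (chr5:32136472-32157839, plus strand) encodes FRA-2, a FOS protein that lacks the strong activating domain of Fos. It had 159, 161 and 158 TPM in TG libraries, against 189, 187 and 182 TPM in WT libraries. Every TG library lay below every WT library. It was called lower, with a log2 fold change of -0.22 ± 0.02 (SE, limma adjusted p = 0.000468). The ratio of Fos to Fosl2 TPM was 15.2 ± 0.2 in TG libraries and 11.5 ± 0.2 in WT libraries (SD, n = 3 each).

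Fosl1, which encodes FRA-1 and is the remaining FOS gene, was added after its values were seen. It was far less abundant, with 3.003, 2.777 and 2.658 TPM in TG libraries, against 7.850, 6.211 and 4.972 TPM in WT libraries. It was called lower too (log2 fold change -0.93 ± 0.14, SE, limma adjusted p = 0.00302). The summed TPM of the 3 FOS members was 3821 ± 9 in TG libraries and 3531 ± 3 in WT libraries (SD, n = 3 each). Fosl2 made up 4.17% of that sum in TG libraries and 5.27% in WT libraries.

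Among the JUN members, Jun was called higher and Jund lower, while Junb was not called. Jun (chr4:95049036-95052222, minus strand), which encodes the most active JUN protein, had 830, 782 and 794 TPM in TG libraries, against 695, 695 and 707 TPM in WT libraries. Every TG library lay above every WT library, and TG replicate 1 was the highest. The log2 fold change of Jun was 0.20 ± 0.02 (SE, limma adjusted p = 0.000783).

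Junb (chr8:84976909-84978748, minus strand), which can oppose Jun at some promoters, had 2283, 2123 and 2145 TPM in TG libraries, against 2190, 2129 and 2120 TPM in WT libraries. The groups overlapped, with TG replicate 1 the highest and TG replicate 2 below WT replicates 1 and 2. Its log2 fold change was 0.02 ± 0.03 (SE, limma adjusted p = 0.581). Without TG replicate 1 the log2 fold change was -0.0084.

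Jund (chr8:70697739-70700616, plus strand), known as the JUN gene with steady expression in resting cells, had 652, 580 and 600 TPM in TG libraries, against 745, 713 and 733 TPM in WT libraries. All TG libraries lay below all WT libraries, although TG replicate 1 was closer to them. Jund was called lower, with a log2 fold change of -0.26 ± 0.04 (SE, limma adjusted p = 0.00307).

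Without correction for GC content, the JUN sum hardly differed, while its composition did. It was 3596 ± 148 TPM in TG libraries and 3576 ± 49 TPM in WT libraries (SD, n = 3 each), and the groups overlapped. Jun made up 22.3% ± 0.2 of the sum in TG libraries and 19.6% ± 0.4 in WT libraries (SD, n = 3 each). Jund made up 17.0% ± 0.3 of it in TG libraries and 20.4% ± 0.2 in WT libraries (SD, n = 3 each). The ratio of Jun to Jund TPM was 1.27, 1.35 and 1.32 in TG libraries, against 0.934, 0.976 and 0.965 in WT libraries. Jun thus exceeded Jund in every TG library and was below it in every WT library.

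**Figure D2:**
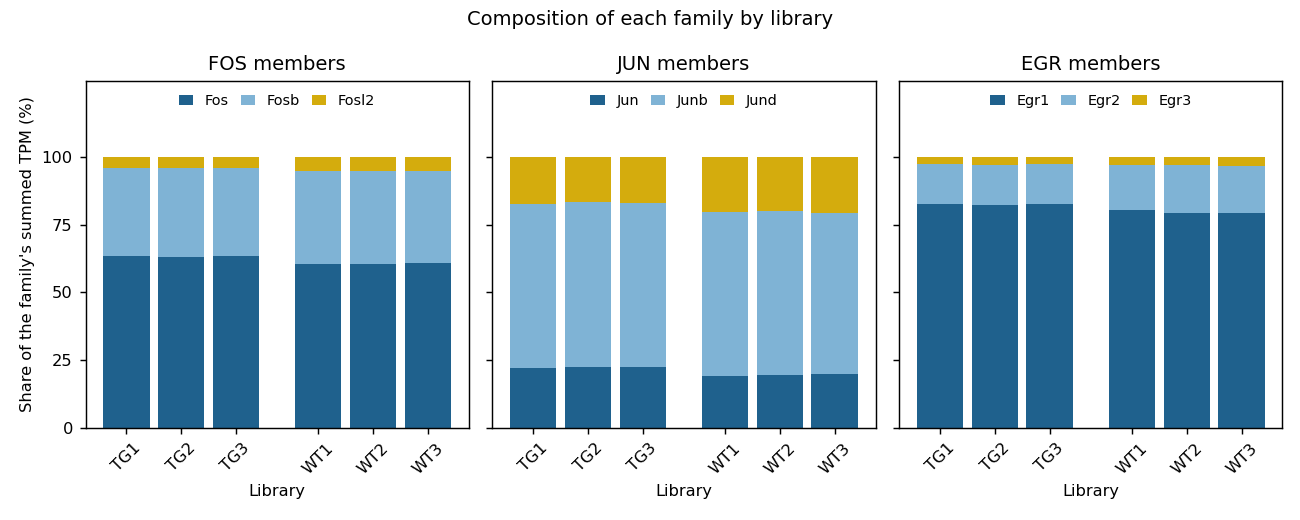
Share of each family's summed TPM taken by each member, in percent, for each library, TG libraries on the left and WT libraries on the right of each panel. In the JUN panel Jund narrows to a mean of 17.0% in TG libraries, against 20.4% in WT libraries, and Jun widens to 22.3%, against 19.6%.

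The transcripts of the 3 JUN members match their gene spans in length, as is known of these intronless genes, and they are GC-rich. Jun has 55.5% GC, Junb 62.6% and Jund 67.1%. Junb and Jund fall in the highest of 20 bins of transcript GC content, in which 623 genes had a median log2 fold change of -0.08, with 32 called higher and 104 lower. In that bin the TG libraries deviated by -0.009, -0.065 and -0.051 from the mean of each gene over libraries, as a median on the log2 scale, against 0.049, 0.037 and 0.048 in WT libraries. TG replicate 1, in which Junb and Jund were highest among the TG libraries, was also the TG library with the smallest such deviation. Jun, which was highest in TG replicate 1 too, falls in bin 16 instead. There the TG libraries deviated by only 0.002, -0.007 and -0.007. With the median of each GC bin removed, an alternative chosen after seeing the data, Jund had a log2 fold change of -0.17 (limma adjusted p = 0.00453). On the same scale Junb had 0.11 (limma adjusted p = 0.00372) and was called higher, and Jun had 0.21. The JUN sum and shares above were not computed with this removal. How the sum differs on that scale was not tested. The annotation places the antisense gene Junos over Jun and the antisense gene Gm11175 over Jund, and the library kit is not described as keeping strand. Reads of these pairs could not be told apart if strand was not kept.

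Atf3 (chr1:191170297-191183333, minus strand) had the largest fold change of the 10. It encodes a stress-induced bZIP protein that restrains inflammatory gene expression in macrophages. It had 898, 885 and 920 TPM in TG libraries, against 676, 674 and 675 TPM in WT libraries. All TG libraries stood clear of the WT libraries. The WT libraries varied by 0.156% as a coefficient of variation, below the 0.711% of counting alone. The mean was 1.33 times as high in TG as in WT libraries, a log2 fold change of 0.42 ± 0.02 (SE, limma adjusted p = 3.77e-06). An exact two-sided permutation test over libraries gave p = 0.10 for Atf3, the smallest that 3 against 3 allow.

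Among the EGR members, Egr1 (chr18:34861207-34864956, plus strand) alone was called. It encodes the zinc finger factor that is the most widely studied of the family, and it had 414, 408 and 413 TPM in TG libraries, against 332, 337 and 331 TPM in WT libraries. Each group was tight and the groups were far apart. Its mean was 1.24 times as high in TG as in WT libraries, a log2 fold change of 0.30 ± 0.02 (SE, limma adjusted p = 1.99e-05).

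Egr2 (chr10:67537930-67542188, plus strand), which is linked in macrophages to differentiation and alternative activation, had 72.7, 72.8 and 72.4 TPM in TG libraries, against 68.3, 74.6 and 72.2 TPM in WT libraries. The WT libraries reached both below and above the TG libraries. Its log2 fold change was 0.02 ± 0.04 (SE, limma adjusted p = 0.757). Egr3 (chr14:70077317-70082613, plus strand), an EGR factor best known from lymphocytes and muscle spindles, was the least abundant member, with 13.7, 14.4 and 13.4 TPM in TG libraries, against 12.2, 12.6 and 13.6 TPM in WT libraries. WT replicate 3 lay within the TG range. Its log2 fold change was 0.11 ± 0.06 (SE, limma adjusted p = 0.254), and it rested on as few as 601 reads in a library.

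Within the EGR members the sum was 498 ± 3 TPM in TG libraries and 418 ± 6 TPM in WT libraries (SD, n = 3 each). Egr1 made up 82.6% of it in TG libraries and 79.8% in WT libraries. Across all 10 members, the share of reads in genes was 1.95% ± 0.03 in TG libraries and 1.83% ± 0.01 in WT libraries (SD, n = 3 each).

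**Figure D3:**
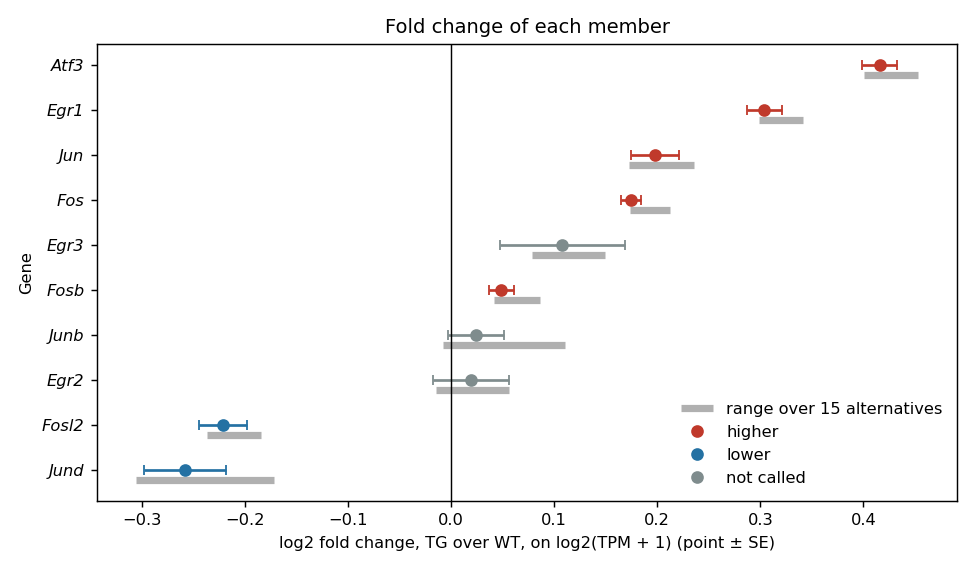
Log2 fold change of each member, TG over WT, on log2(TPM + 1), as points with SE, coloured by call, with a grey bar for the range over 15 alternative settings. Atf3 at 0.42 and Egr1 at 0.30 lie farthest to the right, Fosl2 at -0.22 and Jund at -0.26 on the left, and the grey bars of Junb and Egr2 cross 0.

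The authors' deposited table, which comes from a comparison that counts over whole gene spans, gives all 10 members the same call as here. At an adjusted p below 0.05, of the 20884 genes with a fold change in the authors' deposited table, 11.2% were higher in TG and 13.2% lower. Its smallest adjusted p among the members was that of Atf3, at 3.39e-140 with a log2 fold change of 0.37 in the authors' deposited table. For Junb the authors' deposited table has a log2 fold change of -0.02 and for Egr2 one of -0.04, both opposite in sign to the values above and neither called. For Fosb and Egr2 the authors' deposited table rests on a different transcript from that of the TPM values. Nfil3 has a smaller log2 fold change in the authors' deposited table, 0.09 against 0.19 here, with an adjusted p of 0.0169 in that table.

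The 3 genes with the most similar profile over the 6 libraries were sought for Fos, Jun and Egr1 among the 6536 genes that averaged 10 TPM or more. Likeness was the root mean square difference of log2(TPM + 1) after centring each gene on its mean. The genes nearest to Fos were Fcgrt, which encodes the neonatal Fc receptor, Ccrl2, an atypical chemokine receptor, and Pip5k1c, a lipid kinase, at differences of 0.0081, 0.0087 and 0.0094. Nearest to Jun were Hspe1, a mitochondrial chaperonin, Klf2, a zinc finger factor, and Dck, a nucleoside kinase, at differences of 0.017 each. Nearest to Egr1 were H2-Ab1, an MHC class II chain, Ppp1r15a, a stress-induced phosphatase subunit, and Cyp4f18, a fatty acid hydroxylase, at differences of 0.013, 0.015 and 0.019. The likeness is a description over libraries that share the step between TG and WT.

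Other genes of the same regulatory system were taken from lists that were chosen with earlier results of these data known. Of 37 other immediate-early genes, 13 were called higher in TG macrophages and 12 lower, with a median log2 fold change of 0.04 beside -0.01 over all tested genes. Zfp36, which encodes an mRNA-destabilizing protein, had 2426, 2439 and 2449 TPM in TG libraries, against 2046, 2039 and 2036 TPM in WT libraries (log2 fold change 0.26 ± 0.01, SE, limma adjusted p = 2.97e-06). The TG libraries all lay above the WT libraries. Ppp1r15a was called higher as well, at 217 ± 3 TPM in TG libraries and 173 ± 2 TPM in WT libraries (SD, n = 3 each). The phosphatase gene Dusp2, at 200 ± 1 TPM in TG libraries and 250 ± 3 TPM in WT libraries (SD, n = 3 each), was called lower. So was Ier3, an early survival gene, at 485 ± 7 TPM in TG libraries and 582 ± 4 TPM in WT libraries (SD, n = 3 each). Among all tested genes 8.71% were called higher and 13.2% lower. Immediate-early genes as a list therefore went both ways, and with upper-quartile scaling 16 were called higher and 10 lower.

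Of 22 other AP-1, ATF, small MAF and related bZIP factors, 3 were called higher and 9 lower. Their median log2 fold change was -0.09, and the shares of all tested genes called were 8.71% and 13.2%. Cebpb, a bZIP factor of myeloid inflammatory gene expression, had 554, 522 and 553 TPM in TG libraries, against 954, 827 and 920 TPM in WT libraries. No TG library came near a WT library, and the log2 fold change was -0.73 ± 0.05 (SE, limma adjusted p = 5.78e-05). Crem, a cAMP-responsive bZIP factor, averaged 50.5 ± 1.3 TPM in TG libraries and 67.8 ± 0.9 TPM in WT libraries (SD, n = 3 each) and was called lower. Maff, a small MAF protein without an activating domain, averaged 55.4 ± 4.3 TPM in TG libraries and 73.3 ± 0.9 TPM in WT libraries (SD, n = 3 each) and was called lower too. Batf3, a JUN partner needed by a class of dendritic cells, was called higher. It averaged 57.3 ± 4.8 TPM in TG libraries and 36.3 ± 1.4 TPM in WT libraries (SD, n = 3 each).

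Of 4 EGR partners and corepressors 2 were tested and, beside 13.2% of all tested genes, 1 was called lower. That was Nab1, which encodes a corepressor of EGR proteins, at 16.5 ± 0.5 TPM in TG libraries and 20.0 ± 0.8 TPM in WT libraries (SD, n = 3 each, log2 fold change -0.26 ± 0.05, SE, limma adjusted p = 0.0105). Nab2, its close relative and a known EGR target, averaged 37.4 ± 0.8 TPM in TG libraries and 40.7 ± 3.7 TPM in WT libraries (SD, n = 3 each) and was not called. Egr4 and Wt1 were below the filter on low values.

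Upstream of the members, 0 of 6 genes for SRF, its ternary complex partners and the MRTF coactivators were called higher and 2 lower. Over all tested genes these shares were 8.71% and 13.2%. Srf averaged 21.0 ± 0.5 TPM in TG libraries and 25.1 ± 2.0 TPM in WT libraries (SD, n = 3 each, limma adjusted p = 0.0264), and that call was lost in 6 of 15 alternatives. Elk3, a ternary complex factor, averaged 28.8 ± 0.4 TPM in TG libraries and 32.8 ± 0.7 TPM in WT libraries (SD, n = 3 each) and was called lower. Mrtfa and Mrtfb were not called, with limma adjusted p of 0.197 and 0.623.

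Of 19 MAP kinases and their close partners, 2 were called higher and 4 lower, beside 8.71% and 13.2% of all tested genes. Their median log2 fold change was -0.11. Mapk14, which encodes p38-alpha, averaged 94.5 ± 1.2 TPM in TG libraries and 78.4 ± 2.7 TPM in WT libraries (SD, n = 3 each) and was called higher. The kinase genes Map2k3, which encodes an activator of p38, and Mapkapk2, which encodes a target of p38, were called lower, with log2 fold changes of -0.42 ± 0.04 and -0.26 ± 0.03 (SE). Map2k1, which encodes MEK1, was also called lower, at 58.9 ± 2.1 TPM in TG libraries and 71.9 ± 1.9 TPM in WT libraries (SD, n = 3 each). These are transcript levels and say nothing of kinase activity.

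Of 15 textbook AP-1 target genes tested, 2 were called higher and 8 lower, with a median log2 fold change of -0.17. Over all tested genes 8.71% were called higher and 13.2% lower, so calls there leaned lower too. Summed markers of other cell types differed as well, some lower and some higher in TG libraries. Neutrophil markers averaged 466 TPM in TG libraries and 1030 TPM in WT libraries, fibroblast and smooth muscle markers 137 TPM in TG and 181 TPM in WT, and endothelial markers 36.4 TPM in TG and 57.4 TPM in WT. Epithelial markers were lower too, at 647 TPM in TG and 1107 TPM in WT. T, NK and innate lymphoid markers were higher, at 148 TPM in TG and 131 TPM in WT. So were B and plasma cell markers, at 275 TPM in TG and 236 TPM in WT. Mast cell markers and pancreatic exocrine genes were also higher, at 16.8 and 109 TPM in TG, against 8.16 and 35.1 TPM in WT. The part of other cell types in the values of these target genes was not tested. Mmp9, which encodes a matrix metalloproteinase, had 81.3, 82.2 and 83.6 TPM in TG libraries, against 186, 181 and 176 TPM in WT libraries. All TG libraries were far below all WT libraries (log2 fold change -1.12 ± 0.03, SE, limma adjusted p = 3.19e-07). Vegfa, which encodes an angiogenic growth factor, averaged 45.6 ± 0.1 TPM in TG libraries and 90.8 ± 2.7 TPM in WT libraries (SD, n = 3 each) and was called lower. Timp1, which encodes a metalloproteinase inhibitor, was called lower at 8.89 ± 0.48 TPM in TG libraries and 19.9 ± 0.5 TPM in WT libraries (SD, n = 3 each). Il1b, which encodes the cytokine IL-1beta, was called lower at 2452 ± 14 TPM in TG libraries and 2869 ± 8 TPM in WT libraries (SD, n = 3 each).

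**Figure D4:**
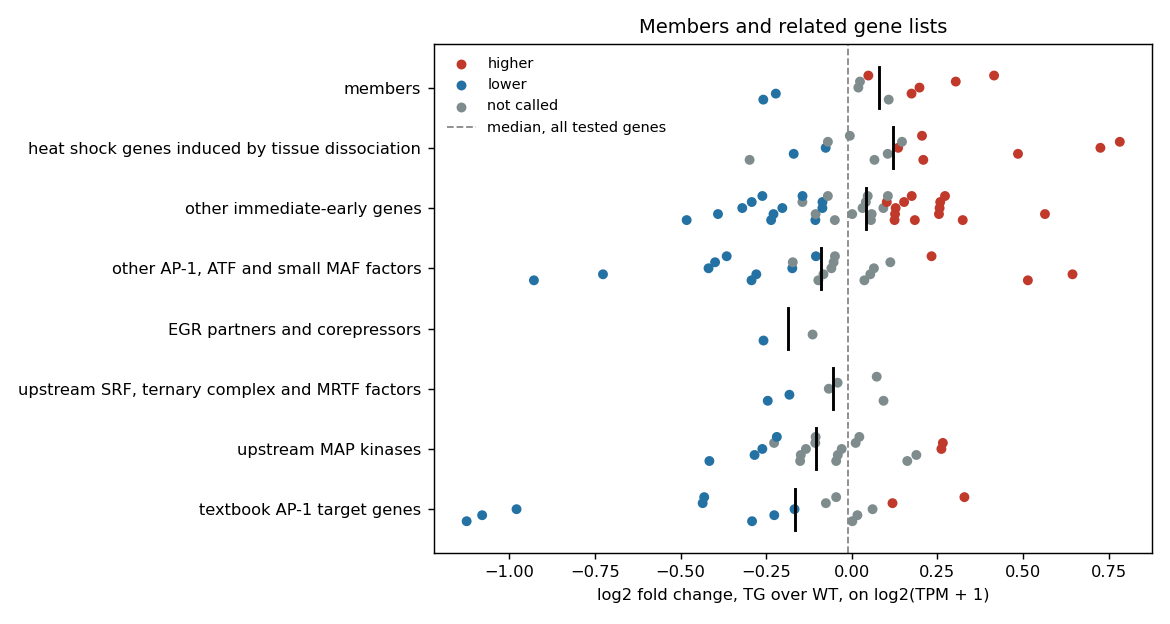
Log2 fold change of each tested gene, TG over WT, on log2(TPM + 1), by gene list, with red for genes called higher, blue for genes called lower, grey for genes not called, black ticks at list medians and a dashed line at the median of all tested genes. The members have a median of 0.08, heat shock genes 0.12, and textbook AP-1 targets -0.17.

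Heat shock genes that tissue dissociation is known to induce were measured beside the members. Of 14, 6 were called higher in TG macrophages and 2 lower, beside 8.71% and 13.2% of all tested genes. Their median log2 fold change was 0.12. Hspa1a, which encodes the inducible chaperone HSP70, had 314, 311 and 308 TPM in TG libraries, against 189, 184 and 189 TPM in WT libraries. The groups were far apart, with a log2 fold change of 0.73 ± 0.02 (SE, limma adjusted p = 5.82e-07). Hspa1b, a near-identical copy whose reads may be split arbitrarily with Hspa1a, averaged 322 ± 3 TPM in TG libraries and 187 ± 9 TPM in WT libraries (SD, n = 3 each). Dnajb1, a cochaperone of HSP70, averaged 67.3 ± 1.4 TPM in TG libraries and 47.8 ± 0.6 TPM in WT libraries (SD, n = 3 each), and Hspe1 averaged 70.3 ± 1.7 TPM in TG libraries and 60.9 ± 1.1 TPM in WT libraries (SD, n = 3 each). All of these were called higher. Their part in the members' differences was not tested.

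Markers of other cells also differed between the groups. Beside the counts here and below, 8.71% of all tested genes were called higher and 13.2% lower. All 12 macrophage markers were detected, with a summed level of 16990 to 17089 TPM in TG libraries, against 17694 to 17861 TPM in WT libraries, and 4 were called higher and 6 lower. With upper-quartile scaling 6 were called higher and 5 lower, so the balance of calls among macrophage markers turned with the scaling. Cd68, which encodes a lysosomal protein of macrophages, was 616 ± 4 TPM in TG libraries and 639 ± 10 TPM in WT libraries (SD, n = 3 each), a call lost in 11 of 15 alternatives. The 12 neutrophil markers summed to 432 to 485 TPM in TG libraries, against 1018 to 1046 TPM in WT libraries, with 6 of 9 tested genes called lower. S100a9, their most abundant gene, averaged 187 ± 14 TPM in TG libraries and 439 ± 8 TPM in WT libraries (SD, n = 3 each). The 12 epithelial markers summed to 644 to 649 TPM in TG libraries, against 1105 to 1109 TPM in WT libraries, with 1 called higher and 8 lower. Car1, a carbonic anhydrase of colonocytes, averaged 164 ± 5 TPM in TG libraries and 497 ± 2 TPM in WT libraries (SD, n = 3 each).

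Fibroblast and smooth muscle markers (5 of 11 called lower) summed to 135 to 139 TPM in TG libraries, against 180 to 182 TPM in WT libraries. Col3a1, a collagen gene and the most abundant of them, averaged 36.1 TPM in TG libraries and 51.9 TPM in WT libraries. Endothelial markers (7 of 8 tested called lower) summed to 33.9 to 39.5 TPM in TG libraries, against 55.9 to 60.2 TPM in WT libraries. The most abundant, Pecam1, averaged 24.6 TPM in TG libraries and 27.9 TPM in WT libraries. T, NK and innate lymphoid markers (4 of 10 tested called higher) summed to 143 to 153 TPM in TG libraries, against 127 to 134 TPM in WT libraries. Among them Cd4 averaged 89.6 TPM in TG libraries and 87.4 TPM in WT libraries and was not called. B and plasma cell markers (1 of 7 called higher) summed to 267 to 285 TPM in TG libraries, against 228 to 242 TPM in WT libraries. Jchain, the immunoglobulin joining chain, averaged 204 TPM in TG libraries and 165 TPM in WT libraries. Mast cell markers (1 of 3 tested called higher) summed to 16.6 to 17.2 TPM in TG libraries, against 6.93 to 9.72 TPM in WT libraries. The mast cell protease gene Mcpt1 averaged 10.1 TPM in TG libraries and 3.81 TPM in WT libraries. Pancreatic exocrine genes summed to 106 to 112 TPM in TG libraries, against 30.0 to 40.1 TPM in WT libraries. Of these genes 12 of 12 tested were called higher, and some were also detected in every WT library. Cela1, an elastase gene and the most abundant of them, averaged 27.5 TPM in TG libraries and 20.2 TPM in WT libraries. Its log2 fold change of 0.43 was the lowest of the 12, whose median was 1.88 and highest 3.59. Of all these markers only Amy2a5, a pancreatic amylase gene, was at 0 in every library. The part of these other cells in the members' values was not tested.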

How the data were processed

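RNA-seq libraries were made from 20 ng of RNA of sorted colon macrophages, 3 TG and 3 WT. Groups follow the sample titles. The genotype field of TG replicates 2 and 3 names E4BP5 and E4BP6, whereas the titles and the design text name E4BP4. Per the submitters' processing notes the authors used bcl2fastq, STAR, HOMER 4.11.1, DESeq2 and the mm10 build, with order and settings not given in the sources used here. The authors deposited TPM for 1 RefSeq transcript per gene, over exons. Their second deposited table holds log2 values, which the authors regularized, with a fold change and a p-value (raw and adjusted) for each gene, over gene spans.

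TPM were tested with limma 3.58.1 (R 4.3.3), with a trend, on log2(TPM + 1), with genotype as the single term and all 6 libraries. Genes had to reach a group mean of 1 TPM, which left 12633, and p-values were adjusted over these by Benjamini-Hochberg. A fold change on this scale understates the change of low genes. TPM times exon length gave whole reads for at least 99.9% of values up to 1000 reads (tolerance 0.1 reads). This gave the depth of 13.97 to 15.06 M reads in genes, which is 79.5% to 81.3% of the totals stated in the file headers. The test was also run on simulated data in which libraries varied by more than counting error. Several members varied by less within a group, so that run does not cover their p-values. Transcript GC content came from GENCODE M21.

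The members and lists were chosen with earlier results of these data known. Named genes are the 10 members, Nfil3, up to 4 genes of lowest unadjusted p in each regulatory list, Csf1r, Adgre1, Cd68, the most abundant gene of each other marker list, and the 3 nearest profiles of Fos, Jun and Egr1, and Fosl1 was added outside that rule after its values were seen. Alternatives covered the pseudocount, filters, scalings, leaving out each library, a replicate block, limma without the trend, voom on recovered reads and, added later, GC bins. A comparison of protein sequences that had been planned was not done here.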

Additional observations from a re-analysis of the deposited data

How the results depend on the processing

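Over 15 alternatives, Fos, Jun, Atf3 and Egr1 stayed called higher and Fosl2 and Jund called lower in all. Their highest limma adjusted p values were 0.0273, 0.0303, 0.00242, 0.00552, 0.0165 and 0.0320, each without the trend. Fosb lost its call in 8, including the replicate block (adjusted p = 0.0560). Junb turned to -0.0084 without TG replicate 1 and was called higher by voom (log2 fold change 0.03) and after removal of GC bins (0.11), an alternative chosen after seeing the data. Egr2 turned to -0.014 without WT replicate 1. Leaving out 1 library gave Junb log2 fold changes of -0.0084 to 0.044 and Egr2 ones of -0.014 to 0.048. Counts of members called ran from 4 to 6 higher and stayed at 2 lower. Of all tested genes, 1100 were called higher and 1666 lower. Leaving out 1 library gave 704 to 883 higher and 1231 to 1373 lower, with 704 without TG replicate 2 and 721 without TG replicate 3. Upper-quartile scaling gave 1425 higher and 1315 lower, and voom 1637 higher and 2074 lower. Under upper-quartile scaling the median log2 fold change of macrophage markers changed sign (0.01 instead of -0.03). The replicate block gave 922 higher and 1457 lower. Replicate numbers were not treated as pairs in the main fit. Deviations of same-numbered libraries correlated at -0.043 to 0.032 over all tested genes. Over genes that averaged 10 TPM or more they correlated at 0.0076 to 0.056. Correlations this small, from 3 libraries a group, cannot decide whether the libraries were paired. Groups of 3 limit every estimate of spread here, and 601 reads limit Egr3.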
